A study of Mus musculus with 6 samples.

Results

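The miR-15/16 seed family is the group of microRNAs (miRNAs, small RNAs that pair with messenger RNAs and repress them) that share the seed of miR-16-5p, the stretch of bases 2 to 8 that pairs with a target. Its members here were taken by name: miR-15a-5p, miR-15b-5p, miR-16-5p, miR-195a-5p, miR-322-5p and miR-497a-5p, 6 of the 1927 rows of the count table. They were measured by small RNA sequencing of extracellular vesicles (EVs) from tibias and femurs of male Swiss-CD1 mice aged 8 weeks, with no treatment, after centrifugation to remove marrow and crushing of the bone. Large EVs (lEVs) are what pelleted at 10000 g; small EVs (sEVs) came from the fluid left over, by centrifugation at 100000 g onto 30% sucrose. Each fraction had 3 libraries, and all groups share the mice's strain, age and sex. Whether the replicates are separate animals or preparations is not stated in the labels, so p-values reflect the spread among these libraries alone, which may be technical. Vesicle size, spin and cushion differ together and cannot be told apart, and less of an miRNA per vesicle cannot be told apart from fewer vesicles that carry it.

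Members of this family act on overlapping sets of targets, because the seed decides most of the pairing. They are known for slowing the cell cycle, through the messenger RNAs of D-type and E-type cyclins and other genes of cell cycle entry, and for lowering the survival protein BCL2. miR-16-5p is abundant in blood cells. The miR-195 and miR-497 pair is known from muscle and from bone vessels, and miR-322, the mouse counterpart of human miR-424, from muscle differentiation.

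The mature sequences from RefSeq (GRCm38.p6) show what the members share and where they part. All 6 members matched an entry. Each is given 5′ to 3′ with the seed in capitals:
miR-16-5p: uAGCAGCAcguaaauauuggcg
miR-195a-5p: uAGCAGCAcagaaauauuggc
miR-15a-5p: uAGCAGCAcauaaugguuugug
miR-15b-5p: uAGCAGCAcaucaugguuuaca
miR-497a-5p: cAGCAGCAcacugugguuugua
miR-322-5p: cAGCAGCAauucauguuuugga
The seed was identical in the 6 members. Compared without gaps from base 1 at the 5′ end, miR-16-5p and miR-195a-5p were the closest pair, with 19 of 21 bases identical and the differences G10A and U11G (miR-16-5p first). miR-15a-5p and miR-15b-5p had 18 of 22 bases identical and differed at A12C, G20A, U21C and G22A (miR-15a-5p first). miR-16-5p and miR-497a-5p were the least alike, with 11 of 22 bases identical. Of 1679 mature names in the RefSeq table, 10 carry this seed; the other 4, miR-195b, miR-6342, miR-6353 and miR-6419, had rows in the count table that were 0 in all 6 libraries. No row that joins the names of several miRNAs held a member.

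The members come from 7 hairpins at 4 places in the genome (GRCm38, GENCODE M21). Mir15b (chr3:69009772-69009835, plus strand) and Mir16-2 (chr3:69009902-69009996) lie 66 bases apart in an intron of Smc4, a condensin subunit gene. Mir16-1 (chr14:61631880-61631972, minus strand) overlaps an exon of the noncoding gene Dleu2, and Mir15a (chr14:61632027-61632110) lies 54 bases away in an intron of the same gene. The 2 loci of miR-16-5p give an identical mature sequence, so its counts cannot be divided between them. Mir497 (chr11:70234717-70234800, plus strand) and Mir195a (chr11:70235042-70235135) lie 241 bases apart. Mir322 (chrX:53054255-53054349, minus strand) lies outside other annotated genes, 200 bases from Mir503. The row of miR-497b, which is annotated antisense to Mir497, was 0 in every library.

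The libraries held between 47441 and 114331 counts, and 145 of the 327 miRNAs above 0 in any library passed the filter on low counts, all 6 members among them. lEVs replicate 1 had the lowest total and stood apart from the other lEVs libraries: a chi-square comparison of counts gave 20.1 and 15.7 per degree of freedom against lEVs replicates 2 and 3, and 2.06 between those. The defining miRNAs of muscle (3 of 3 listed), endothelium (2 of 2), granulocytes and monocytes (4 of 4) and mesenchymal cells (5 of 5) were above 0 in every library. By list, the median log2 fold change (sEVs relative to lEVs) was -0.67 for muscle, 0.33 for endothelium, -0.20 for granulocytes and monocytes and 0.11 for mesenchymal cells. The muscle list was split in sign. Its most abundant member, miR-1a-3p, was at 0.18, while miR-206-3p was at -0.67 and miR-133a-3p/133b-3p at -0.85. The list of granulocytes and monocytes was split as well. Its most abundant member, miR-223-3p, was at 0.04, with miR-142a-5p at -0.14, miR-142a-3p at -0.25 and miR-223-5p at -0.72. In these lists and that of lymphocytes (1 tested), 2 miRNAs passed the test between the fractions described below, both higher in sEVs: miR-150-5p of lymphocytes (log2 fold change 0.91) and miR-143-3p of mesenchymal cells (0.65). Over all 145 miRNAs tested, 17.2% passed in either direction, 8.28% higher in sEVs. The other 4 of the mesenchymal list ran from -1.005 for miR-145a-5p (edgeR adjusted p = 0.0592) to 0.45 for miR-199a-5p. Their part in the members' results was not tested.

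The family was carried almost wholly by miR-16-5p, the most abundant of the tested miRNAs in both fractions. The 6 members held 18.9%, 16.6% and 17.5% of the counts of lEVs replicates 1, 2 and 3 and 15.5%, 14.9% and 14.5% of those of sEVs (17.6% ± 1.16 and 15.0% ± 0.504; SD, n = 3 each). As shares of library totals, the lEVs libraries therefore all lay above the sEVs libraries. On that scale 45.5% of the 145 miRNAs tested did not overlap, 27.6% with lEVs higher. No test was made of the family sum, whose members were chosen with results known. Within the family sum, miR-16-5p held 97.8%, 96.2% and 96.8% in lEVs and 97.6%, 97.2% and 96.8% in sEVs, and the fractions overlapped. The other 5 members together held 0.535% ± 0.117 of the lEVs counts and 0.415% ± 0.0508 of the sEVs counts (SD, n = 3 each), with overlapping values.

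**Figure D1:**
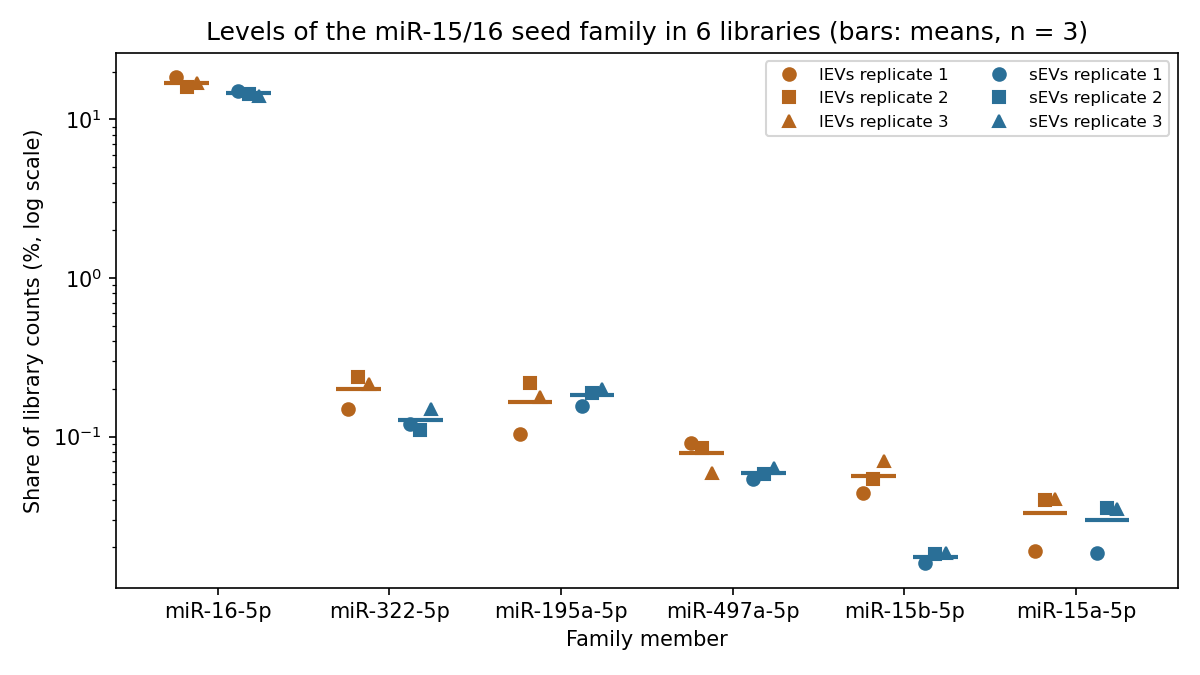
Share of library counts (%, log scale) of each family member in the 3 lEVs (brown) and 3 sEVs (blue) libraries; horizontal bars are means. miR-16-5p lies between 14.1% and 18.5% and the other 5 members between 0.0159% and 0.238%. The lEVs and sEVs points of miR-16-5p, miR-322-5p and miR-15b-5p do not overlap on this scale, as for 45.5% of the 145 miRNAs tested.

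Between the fractions, 2 of the 6 members passed the test and both were higher in lEVs, miR-15b-5p and, near the threshold, miR-322-5p. The 4 others, miR-15a-5p, miR-16-5p, miR-195a-5p and miR-497a-5p, did not pass. The test was edgeR's quasi-likelihood test over all 145 miRNAs, with TMM scaling (which sets libraries to a common level from the bulk of the miRNAs) and Benjamini-Hochberg adjustment. Of the 145, 17.2% passed in either direction, 8.97% higher in lEVs and 8.28% higher in sEVs. The median log2 fold change (sEVs relative to lEVs) of the 6 members was -0.20, beside -0.04 over all miRNAs tested.

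miR-15b-5p, which shares its host intron with one copy of miR-16, was the member that differed most. It had 21, 50 and 61 counts in lEVs replicates 1, 2 and 3 and 12, 18 and 21 in those of sEVs. In CPM (counts after adjusting each library for its size, here with TMM factors) the lEVs values were 519, 459 and 630 and the sEVs values 166, 190 and 189, so every lEVs library lay above every sEVs library. A lack of overlap in CPM was seen for 44.1% of the miRNAs tested, and for 22.1% with the lEVs libraries higher. The level of miR-15b-5p was 2.93-fold higher in lEVs (536 ± 86.8 against 181 ± 13.8 CPM; SD over 3 libraries each; log2 fold change -1.55 with SE 0.22; adjusted p = 0.00191 in edgeR). Ordered from the miRNA most shifted to lEVs, it was at place 6 of 145. The call held in each of 13 alternatives, with log2 fold changes between -1.71 and -1.43 and adjusted p between 1e-05 and 0.0124. Without lEVs replicate 1 the log2 fold change was -1.57.

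miR-322-5p, from the X chromosome, had 71, 220 and 186 counts in lEVs replicates 1, 2 and 3 and 91, 109 and 171 in those of sEVs. In CPM it stood at 1754, 2020 and 1921 in lEVs and 1256, 1152 and 1535 in sEVs. It again showed no overlap, as for 44.1% of the miRNAs tested. It was 1.45-fold higher in lEVs (1898 ± 134 against 1314 ± 198 CPM; SD over 3 libraries each; log2 fold change -0.53 with SE 0.15; adjusted p = 0.0477 in edgeR). The direction was the same in the 13 alternatives, but 4 of them passed, with adjusted p between 0.00619 and 0.183. The call was lost on leaving out replicate 2 or 3 of lEVs (adjusted p = 0.0991 and 0.134) or replicate 1 or 2 of sEVs (0.146 and 0.125), and in DESeq2 (0.183).

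miR-16-5p gave a different picture on each scale. Its counts were 8755, 14724 and 14661 in lEVs replicates 1, 2 and 3 and 11456, 14412 and 16093 in those of sEVs. These made up 18.5%, 15.9% and 16.9% of the lEVs libraries and 15.2%, 14.5% and 14.1% of the sEVs libraries, with lEVs above sEVs throughout, as for 27.6% of the miRNAs tested on that scale, where 45.5% did not overlap in either direction. In CPM with TMM factors the fractions overlapped, at 216323, 135180 and 151424 for lEVs and 158093, 152360 and 144478 for sEVs, where lEVs replicate 1 was highest and lEVs replicate 2 lowest of the 6. The log2 fold change was -0.14 (SE 0.19; edgeR adjusted p = 0.569). It was -0.23 with library totals (edgeR adjusted p = 0.0703), where the median of all miRNAs tested was -0.18, and turned to 0.08 without lEVs replicate 1 (edgeR adjusted p = 0.483).

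miR-15a-5p, the closest relative of miR-15b-5p in sequence, had 9, 37 and 35 counts in lEVs replicates 1, 2 and 3 and 14, 35 and 40 in those of sEVs. Both replicates numbered 1 were low, and the fractions overlapped with 307 ± 99.1 CPM in sEVs against 308 ± 74.8 in lEVs (SD over 3 libraries each; log2 fold change -0.03 with SE 0.30; adjusted p = 0.930 in edgeR). Its 9 counts in lEVs replicate 1 were 0.101% of that library's family counts, with an exact 95% binomial (Clopper-Pearson) interval of 0.0460% to 0.191% that covers counting error only. With this spread, a change of the size seen for miR-322-5p lay within 2 SE and was not detectable.

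The chromosome 11 pair differed in sign. miR-195a-5p had 49, 202 and 154 counts in lEVs replicates 1, 2 and 3 and 118, 188 and 229 in those of sEVs, and CPM of 1552 ± 324 and 1891 ± 230 (SD over 3 libraries each; log2 fold change 0.26 with SE 0.18; adjusted p = 0.309 in edgeR). It was the one member with a log2 fold change above 0, and the value was 0.13 without lEVs replicate 1, 0.15 without sEVs replicate 3 and 0.11 with library totals. miR-497a-5p had 43, 79 and 51 counts in the lEVs libraries against 41, 58 and 73 in the sEVs libraries, and CPM of 772 ± 271 and 611 ± 44.8 (SD over 3 libraries each; log2 fold change -0.26 with SE 0.25; adjusted p = 0.446 in edgeR). Its wide lEVs spread ran from 1062 CPM in replicate 1 to 527 CPM in replicate 3, and without lEVs replicate 1 the log2 fold change was -0.04. Neither passed the test.

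**Figure D2:**
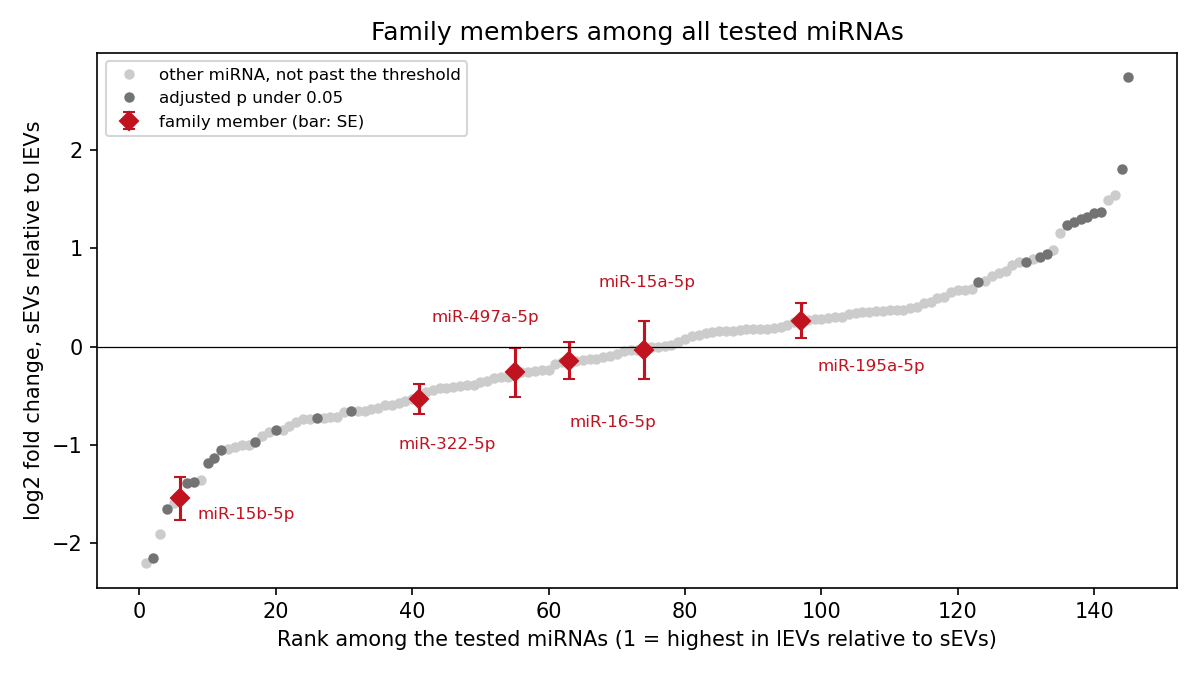
Log2 fold change (sEVs relative to lEVs) of the 145 tested miRNAs, ordered by value; diamonds are the 6 family members with their SE, dark dots are other miRNAs at an adjusted p under 0.05. miR-15b-5p lies at place 6 and miR-322-5p at place 41 from the lEVs end, and the other members lie between -0.26 and 0.26.

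The members changed order between the fractions. In lEVs, by mean CPM, miR-16-5p was followed by miR-322-5p, miR-195a-5p, miR-497a-5p, miR-15b-5p and miR-15a-5p. The ranges of miR-322-5p and miR-195a-5p overlapped, as did those of miR-497a-5p and miR-15b-5p; the other neighbours did not overlap. In sEVs the order was miR-16-5p, miR-195a-5p, miR-322-5p, miR-497a-5p, miR-15a-5p and miR-15b-5p, and no neighbours overlapped, though miR-15a-5p and miR-15b-5p were close in sEVs replicate 1 (14 and 12 counts). These are levels of RNAs of 21 or 22 bases, compared without a length correction; capture of different sequences into a library can differ and was not measured here.

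Shares of the family sum do not depend on how libraries are scaled to each other. Of that sum, miR-15b-5p held 0.235%, 0.327% and 0.403% in lEVs replicates 1, 2 and 3 and 0.102%, 0.121% and 0.126% in those of sEVs, without overlap. An exact two-sided permutation test gave p = 0.1, the smallest that 3 against 3 libraries allow (0.6 after Benjamini-Hochberg adjustment over the 6 members). Counts relative to miR-16-5p, which made up most of that sum, did not overlap for 41.7% of the 144 other miRNAs tested. The shares of the other members overlapped. miR-322-5p held 1.15% ± 0.328 in lEVs and 0.847% ± 0.159 in sEVs (SD, n = 3 each; exact permutation p = 0.2), and miR-195a-5p 0.961% ± 0.389 and 1.22% ± 0.191 (exact permutation p = 0.5). In percentage points (sEVs minus lEVs), the difference of miR-195a-5p was 0.256 and became 0.0493 without lEVs replicate 1 and 0.435 without lEVs replicate 2. That of miR-322-5p was -0.306 and became -0.486 and -0.164 in turn.

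Leaving miR-16-5p out brought the composition of the 5 minor members into view. They had 193, 588 and 487 counts in lEVs replicates 1, 2 and 3 and 276, 408 and 534 in those of sEVs. Of these counts miR-195a-5p held 25.4%, 34.4% and 31.6% in lEVs against 42.8%, 46.1% and 42.9% in sEVs. miR-322-5p held 36.8%, 37.4% and 38.2% in lEVs against 33.0%, 26.7% and 32.0% in sEVs. miR-15b-5p held 10.9%, 8.50% and 12.5% in lEVs against 4.35%, 4.41% and 3.93% in sEVs. Each of these 3 members was without overlap, and each gave the smallest possible exact permutation p of 0.1 (0.167 after adjustment over the 5 members). A lack of overlap was common on other scales, at 44.1% of the 145 miRNAs tested in CPM and 45.5% as shares of library totals. The shares of miR-15a-5p and miR-497a-5p overlapped (exact permutation p = 0.4 and 1.0). Shares of one sum are tied to each other, so a rise of one lowers the rest.

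**Figure D3:**
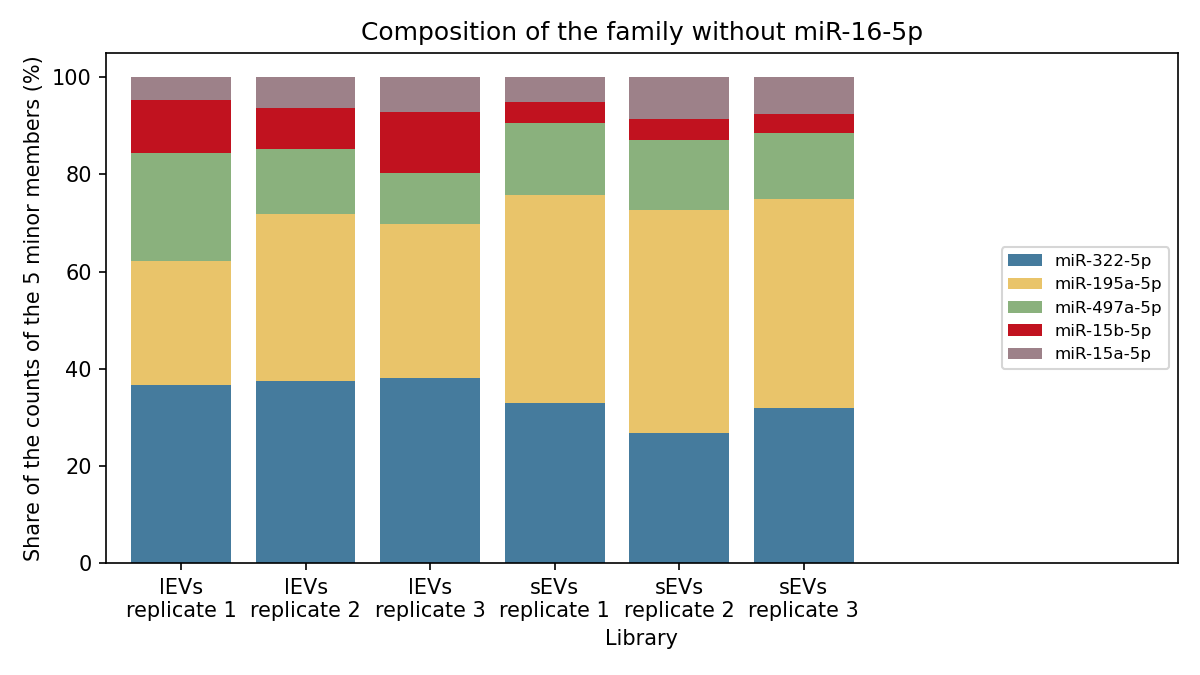
Stacked shares (%) of the 5 family members other than miR-16-5p in each library. The miR-195a-5p segment takes 25.4% to 34.4% in lEVs and 42.8% to 46.1% in sEVs, and the miR-15b-5p segment 8.50% to 12.5% in lEVs and 3.93% to 4.41% in sEVs.

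Ratios within a library asked whether members moved apart from each other. Relative to miR-16-5p, with which it is encoded on chromosome 3, miR-15b-5p had 2.40, 3.40 and 4.16 counts per 1000 counts of miR-16-5p in lEVs replicates 1, 2 and 3 and 1.05, 1.25 and 1.30 in those of sEVs. The fractions did not overlap, as for 41.7% of the 144 other miRNAs tested. The log2 ratio differed between the fractions by -1.39 (SE 0.26; limma adjusted p = 0.0193 over 144 miRNAs set against miR-16-5p, of which 10.4% passed, 5.56% with the ratio higher in lEVs). The call was lost on leaving out any library other than lEVs replicate 1 (limma adjusted p between 0.0577 and 0.0907), and held without that library (limma adjusted p = 0.00755). The other 4 members did not pass this test. The log2 ratio differed by -0.42 (SE 0.29) for miR-322-5p, 0.41 (SE 0.36) for miR-195a-5p, -0.16 (SE 0.24) for miR-497a-5p and 0.09 (SE 0.44) for miR-15a-5p, with limma adjusted p between 0.353 and 0.897. Without lEVs replicate 1 the value was 0.05 for miR-195a-5p and -0.67 for miR-322-5p, and without lEVs replicate 2 it was 0.69 and -0.23.

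Further ratios between members and with neighbours were chosen after their values were seen, 5 in all, and are given as a description. None passed in limma, with adjusted p between 0.0535 and 0.765. As the pairs were picked on these values, these p-values are also only descriptive. miR-15b-5p over miR-15a-5p was 2.33, 1.35 and 1.74 in lEVs replicates 1, 2 and 3 and 0.857, 0.514 and 0.525 in those of sEVs. The more abundant of the pair was thus miR-15b-5p in each lEVs library and miR-15a-5p in each sEVs library (log2 difference -1.47, SE 0.51). miR-322-5p over miR-195a-5p turned in the same way, from 1.45, 1.09 and 1.21 in lEVs to 0.771, 0.580 and 0.747 in sEVs (log2 difference -0.83, SE 0.26). How many other miRNAs lacked overlap against these denominators was not computed. Against miR-16-5p it was 41.7% of 144. Within the chromosome 11 pair, miR-195a-5p over miR-497a-5p was 1.14, 2.56 and 3.02 in lEVs and 2.88, 3.24 and 3.14 in sEVs. There lEVs replicate 1 lay far below the other 5 libraries; the log2 difference of 0.57 (SE 0.41) fell to 0.15 without it.

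**Figure D4:**
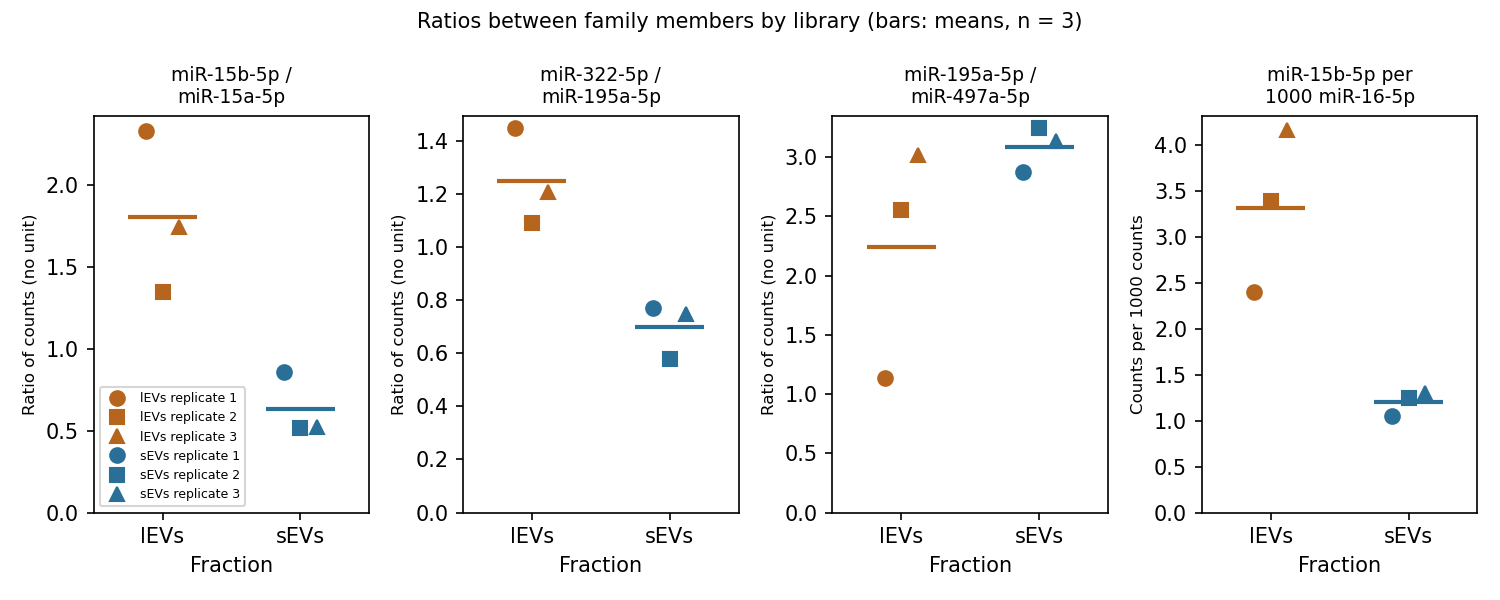
Ratios of counts in each library for 3 pairs of members, and miR-15b-5p per 1000 counts of miR-16-5p, in lEVs (brown) and sEVs (blue); horizontal bars are means of 3 libraries and axes start at 0. All panels but that of miR-195a-5p over miR-497a-5p show no overlap between fractions. The 3 pairs were chosen after their values were seen, and no share of miRNAs without overlap was computed for their denominators. In that one lEVs replicate 1 lies at 1.14 against 2.56 to 3.24 elsewhere. Counts relative to miR-16-5p did not overlap for 41.7% of the 144 other miRNAs tested.

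The passenger strands, the opposite arms of the hairpins that are mostly discarded, were near the bottom of the table. Of 7, 4 were 0 in all libraries and none passed the filter. miR-15b-3p had 4, 7 and 7 counts in lEVs replicates 1, 2 and 3 and 0, 0 and 6 in those of sEVs. miR-195a-3p had 4, 5 and 11 in the lEVs libraries against 13, 7 and 8 in sEVs. miR-16-1-3p and miR-16-2-3p, which would tell the miR-16 loci apart, were both at 0. The table holds no value of 1, so a 0 may stand for 0 or 1 count.

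Among 9 listed neighbours of miR-322 on the X chromosome, 2 were tested and neither passed in edgeR, with 0 at an unadjusted p under 0.05 and 0 in DESeq2. Of all 145 miRNAs tested, 17.2% passed in edgeR, so 2 without a call say little about the locus. miR-503-5p shares the first 6 of the 7 seed bases (here in capitals, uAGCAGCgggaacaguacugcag). It had 5, 18 and 16 counts in lEVs replicates 1, 2 and 3 and 23, 14 and 11 in those of sEVs (log2 fold change 0.18 with SE 0.46; adjusted p = 0.783 in edgeR). miR-351-5p had 40, 74 and 60 counts in the lEVs libraries against 53, 71 and 62 in the sEVs libraries (log2 fold change -0.12 with SE 0.22; adjusted p = 0.686 in edgeR). The log2 ratio of miR-322-5p differed between the fractions by -0.39 (SE 0.35) against miR-351-5p and -0.69 (SE 0.66) against miR-503-5p. Leaving out single libraries moved these to between -0.64 and -0.22 and between -1.16 and -0.22 (the last without sEVs replicate 1).

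Of 10 other listed miRNAs known to restrain the cell cycle, 7 were tested and 0 passed in edgeR, with a median log2 fold change of 0.28. At an unadjusted p under 0.05 there were 2, let-7a-5p and miR-26a-5p, and DESeq2 called 2. The most abundant, let-7c-5p, had a log2 fold change of 0.22 (SE 0.25). The values were 0.37 (SE 0.15; edgeR adjusted p = 0.12) for let-7a-5p and 0.41 (SE 0.12; edgeR adjusted p = 0.0537) for miR-26a-5p. Those of let-7b-5p, miR-26b-5p and the joined row of miR-101a-3p/101b-3p/101c were 0.17, 0.30 and 0.28. The seventh, miR-34a-5p, had the opposite sign, at -0.45 (SE 0.33; edgeR adjusted p = 0.341). The share of library counts held by all 10 was 18.9% ± 2.39 in lEVs and 21.3% ± 0.737 in sEVs (SD, n = 3 each), with overlap. Of 11 miRNAs known to promote the cell cycle, 7 were tested and 1 was higher in lEVs, miR-25-3p, at a mean of 6474 CPM there and 3587 CPM in sEVs (log2 fold change -0.85 with SE 0.15; adjusted p = 0.00617 in edgeR). The other abundant ones, miR-92a-3p and miR-93-5p, had log2 fold changes of -0.43 (SE 0.16; edgeR adjusted p = 0.0927) and -0.04 (SE 0.13), and miR-20a-5p was the one tested above 0, at 0.29 (SE 0.34). The median of the 7 was -0.40. At an unadjusted p under 0.05 there were 2 of them, and DESeq2 called 1. Beside both lists, 17.2% of all 145 miRNAs tested passed in edgeR, 8.97% higher in lEVs and 8.28% higher in sEVs. DESeq2, run on the 327 miRNAs above 0 in any library, called 29, 17 higher in sEVs and 12 in lEVs. The share of all miRNAs at an unadjusted p under 0.05 is not given, so those counts have no background here. The share of library counts held by all 11 was 1.85% ± 0.266 in lEVs and 1.30% ± 0.0761 in sEVs (SD, n = 3 each), without overlap, as for 45.5% of single miRNAs tested on that scale, 27.6% with lEVs higher.

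Red cell miRNAs, listed because miR-16-5p is abundant in blood, held 0.746%, 0.544% and 0.588% of the counts of lEVs replicates 1, 2 and 3 and 0.440%, 0.568% and 0.438% of those of sEVs, with overlap. Of the 5 rows that hold the 6 listed names, miR-486a-3p/486b-3p was 0 throughout and 2 were tested, neither of which passed in edgeR, with 0 at an unadjusted p under 0.05 and 0 in DESeq2. Of all 145 miRNAs tested, 17.2% passed in edgeR, so 2 without a call say little about red cells. miR-451a, the defining miRNA of red cells, had 6, 37 and 19 counts in the lEVs libraries against 20, 41 and 28 in the sEVs libraries (log2 fold change 0.39, SE 0.35). miR-486a-5p/486b-5p had 345, 444 and 460 counts in the lEVs libraries against 301, 495 and 452 in the sEVs libraries (log2 fold change -0.35, SE 0.28). The summed share was thus mostly that of miR-486a-5p/486b-5p (mean 5784 CPM in lEVs and 4482 in sEVs), beside 228 and 320 CPM for miR-451a. The part of red cell miRNAs in the levels of miR-16-5p was not tested.

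The miRNAs whose pattern was most like that of a member were found by Pearson's r of log2(CPM + 1) over the 6 libraries, among 137 others with a mean of at least 100 CPM. For miR-16-5p they were miR-328-3p (r = 0.96), miR-140-3p (0.95) and miR-486a-5p/486b-5p (0.93). For miR-15b-5p they were miR-128-3p (0.98), miR-3473b/3473e (0.98) and miR-425-5p (0.98), and each of these was itself higher in lEVs, by log2 fold changes of -1.18, -2.16 and -0.73 in turn (adjusted p = 0.00101, 0.000284 and 0.0159 in edgeR). The 6 points share library scaling and the 2 fractions, so these values are a description. These 3 were picked for likeness to miR-15b-5p, which was itself higher in every lEVs library. Their direction therefore follows from the choice and is no separate result. Of all 145 miRNAs tested, 8.97% passed in edgeR as higher in lEVs.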

How the data were processed

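The samples were 3 lEVs and 3 sEVs libraries. Per the labels' protocols, QIAseq miRNA libraries were run on a MiSeq, 75 bases from one end. The authors deposited raw whole-number counts per mature miRNA. The submitters' processing notes list R 4.2.2, DESeq2 1.38.2 and the GRCm38 build. Not given in the sources used here: aligner, use of strand, and whether a count is a read or a molecular identifier. Library totals ran from 47441 to 114331 counts.

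edgeR 4.0.16 (R 4.3.3; quasi-likelihood test, TMM, filterByExpr minimum of 10 counts and total of 15) was fitted to the counts, with Benjamini-Hochberg adjustment over 145 miRNAs and a threshold of 0.05. SE is the absolute log2 fold change over the square root of F. Ratios to miR-16-5p were tested with limma 3.58.1 on within-library differences of log2(CPM + 10). Single shares were tested by exact two-sided permutation (SciPy 1.17.1). Alternatives were DESeq2 1.42.0, its size factors in edgeR, library totals, scaling without the members, no filter, the replicate number as a block, leaving out single libraries and, for ratios, 1 CPM as pseudocount. Reading every 0 as 1 count and the 5 further ratios were chosen after seeing the data. These ratios are given as a description, with limma differences, SE and the range of adjusted p. Scripts were tested on simulated data. The text names the members and, from lists of related miRNAs, those past the test, the more abundant or those a result needs; for miR-16-5p and miR-15b-5p it names the 3 others with the highest r. The members and lists were chosen with earlier results of these data known.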

Additional observations from a re-analysis of the deposited data

How the results depend on the processing

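Of 260 values recomputed under an alternative, 206 kept their direction and their side of the threshold, or stayed within the limit set for counts and shares. This count is no measure of stability, as some values could not change. Permutation p-values of shares cannot fall under 0.1, and a fraction's family share does not depend on libraries of the other fraction. The count also includes the 5 further ratios. The call of miR-15b-5p held in all 13 alternatives run. The call of miR-322-5p was lost with DESeq2 (log2 fold change -0.52), DESeq2 size factors in edgeR (-0.53), library totals (-0.67), the replicate number as a block (-0.54) and zeros read as 1 (-0.50), each of which left 1 of 6 members called, and its values ran from -0.71 to -0.47 on leaving out single libraries, with 1 to 2 members called. Where 5 libraries remained, fewer samples were tested; otherwise the cause was not tested. The sign of miR-15a-5p turned with the block (log2 fold change 0.0062), with zeros read as 1 (0.0021) and on leaving out libraries (-0.21 to 0.22), and that of miR-16-5p on leaving out libraries (-0.31 to 0.0754, the latter without lEVs replicate 1). The number of miRNAs called was 25, 53 without the filter and 16 to 52 on leaving out libraries; library totals, which moved the median log2 fold change of all miRNAs from -0.04 to -0.18, changed the split from 12 higher in sEVs and 13 in lEVs to 11 and 24. For ratios to miR-16-5p, 15 miRNAs were called, 5 with the block and 2 to 25 on leaving out libraries, with 0 to 1 members; values over these alternatives ran from -1.60 to -1.21 for miR-15b-5p, -0.67 to -0.23 for miR-322-5p, 0.05 to 0.69 for miR-195a-5p, -0.34 to -0.03 for miR-497a-5p and -0.32 to 0.41 for miR-15a-5p. The family share rose to 20.2% of lEVs and 17.2% of sEVs counts when joined rows left the total, and was 0.644% and 0.485% with miR-16-5p left out of both the sum and the library total. The difference in share of the family sum (percentage points, sEVs minus lEVs) ran from -0.0377 to 0.0473 for miR-15a-5p, -0.486 to -0.164 for miR-322-5p, 0.0493 to 0.435 for miR-195a-5p and from -0.0865 to 0.755 for miR-16-5p on leaving out libraries.

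The replicate numbers were not taken as pairs in the main test. As sEVs came from the fluid left over, libraries with the same number may share a preparation, which is not stated. Deviations from the fraction means correlated at -0.04, 0.02 and 0.35 for numbers 1, 2 and 3 over 145 miRNAs. Between unlike numbers the values ran from -0.30 to 0.15. With 3 libraries per fraction these values cannot decide whether the libraries are paired. The block gave 26 calls against 25, and ended the call of miR-322-5p (edgeR adjusted p = 0.0599) and no other call of a member. Depth limits miR-15a-5p and miR-15b-5p, which had as few as 9 and 12 counts in a library.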
